A study of Homo sapiens with 9 samples.

Results

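The aldo-keto reductases are a family of enzymes that use NADPH to reduce aldehydes and ketones to alcohols. The members described here are AKR1C1, AKR1C2, AKR1C3, AKR1B10, AKR1B1, AKR1A1 and AKR7A2. They were found by matching the Entrez identifiers of the count table to these symbols, and all 7 of 7 were present among its 12798 features. All 7 were also among the 11788 features with enough reads to be tested.

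RNA was sequenced from HepG2 cells, an established line from a human liver tumour that keeps many features of hepatocytes. The cells had been transduced with the LentiCRISPRv2 vector, which carries Cas9 and a guide RNA, and selected with puromycin. The guide targeted AAVS1 in the control cells (sgCtrl), and KEAP1 in the other 2 groups (sgKEAP1-1 and sgKEAP1-2). Each group had 3 libraries, prepared from RNA taken 48 h after seeding, and the labels name no siRNA treatment for any of them. Isolation of single clones is not described for these cells, so a group may hold edited and unedited cells, and a higher level in every cell cannot be told apart from a still higher level in some of them. Nothing states that the libraries of a group came from separate cultures, and p-values therefore measure the spread between these libraries, which may be technical. The same sgCtrl libraries served as control for both KEAP1 guides, so the comparisons of the guides with sgCtrl are not independent.

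KEAP1 is the adaptor that directs the transcription factor NRF2 (encoded by NFE2L2) to the proteasome. When KEAP1 is lost or modified by electrophiles, NRF2 accumulates and drives genes of glutathione synthesis, NADPH supply and detoxification. Several aldo-keto reductases belong to these genes in human cells, and their levels are widely used to read NRF2 activity in liver and lung cancer. The comparison asks which of the 7 genes differed in cells carrying a KEAP1 guide, by how much, and whether both guides gave the same values.

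AKR1C1, AKR1C2 and AKR1C3 lie side by side on chromosome 10, at chr10:4963415-4983283, chr10:4987775-5018000 and chr10:5048781-5107686 (RefSeq positions, GRCh38.p14). AKR1B10 and AKR1B1 are neighbours on chromosome 7, at chr7:134527567-134541412 and chr7:134442350-134459239. AKR1A1 and AKR7A2 are on chromosome 1, at chr1:45550826-45570049 and chr1:19302708-19312146. The deposited table gives no positions of its own.

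The AKR1C genes are close copies, and the 250 bases before their start sites (RefSeq, GRCh38.p14) are shown because they let the copies be compared base by base. AKR1C1 lies on the forward strand (chr10:4963165-4963414), AKR1C2 on the reverse strand (chr10:5003858-5004107) and AKR1C3 on the forward strand (chr10:5048531-5048780, the first of 2 start sites). Each sequence is written 5′ to 3′ on the strand of its gene. Capitals mark the bases that differ from AKR1C1 where the sequences were aligned.
AKR1C1: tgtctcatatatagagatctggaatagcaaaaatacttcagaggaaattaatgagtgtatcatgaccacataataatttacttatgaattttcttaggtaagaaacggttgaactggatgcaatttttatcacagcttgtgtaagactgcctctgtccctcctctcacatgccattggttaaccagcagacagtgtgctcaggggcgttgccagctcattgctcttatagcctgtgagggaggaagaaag
AKR1C2: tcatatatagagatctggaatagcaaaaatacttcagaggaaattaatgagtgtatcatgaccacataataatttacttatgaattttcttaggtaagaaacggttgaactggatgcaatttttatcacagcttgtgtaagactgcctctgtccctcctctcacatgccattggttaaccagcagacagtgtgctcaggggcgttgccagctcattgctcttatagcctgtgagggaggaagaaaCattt
AKR1C3: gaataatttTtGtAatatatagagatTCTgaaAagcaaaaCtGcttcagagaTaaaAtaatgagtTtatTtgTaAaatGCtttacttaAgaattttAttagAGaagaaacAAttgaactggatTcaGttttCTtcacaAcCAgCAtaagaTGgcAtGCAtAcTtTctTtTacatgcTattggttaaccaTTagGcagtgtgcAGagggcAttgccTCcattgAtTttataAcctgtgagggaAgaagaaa
AKR1C2 was identical to AKR1C1 at 245 of 246 aligned bases (99.6%), whereas AKR1C3 was identical to AKR1C1 at 185 of 241 (76.8%).

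The transcripts of these genes were also alike. In GENCODE, the main AKR1C1 and AKR1C2 transcripts were identical at 3119 of 3209 aligned bases (97.2%), and each was identical to AKR1C3 at 90.1% of aligned bases. AKR1B10 and AKR1B1 were identical at 71.9%. QuantSeq reads come from the end of a transcript, next to its tail, so the last 500 bases of each main transcript were compared with all other genes in windows of 75 bases, the length of the reads. For AKR1C2, 174 of 426 windows (40.8%) also occurred in AKR1C1, and for AKR1C3, 97 (22.8%) also occurred in other AKR1C genes. For AKR1C1 the number was 0, although among its 3 annotated coding transcripts the share ran up to 35.2%. Among the coding transcripts of AKR1C2 it ran from 16.2% to 50.7%, and among those of AKR1C3 from 8.92% to 23.2%. Which of these ends gave the reads was not examined. For the main transcripts of the other members, the shares were 3.52% for AKR1B10 (with AKR1B15) and 7.04% for AKR7A2 (with AKR7A3 and AKR7L). For AKR1B1 and AKR1A1, 0 windows were shared. How reads that match more than 1 gene were counted is not given in the sources used here, so the division of reads among AKR1C1, AKR1C2 and AKR1C3 is uncertain, and their sum is reported beside them.

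The core of the antioxidant response element, the sequence bound by NRF2 with small MAF proteins, was searched as TGACNNNGC on both strands (GCNNNGTCA on the other), from 250 bases before to 50 bases after each start. It was present in 4687 of 35116 RefSeq windows of this length (13.3%). Among the 6 members with a window in the promoter table it occurred in AKR7A2, with 3 matches. AKR1B10 had no window in that table. The AKR7A2 sequence (chr1:19312147-19312396, reverse strand, 5′ to 3′) is shown with the matches in capitals.
AKR7A2: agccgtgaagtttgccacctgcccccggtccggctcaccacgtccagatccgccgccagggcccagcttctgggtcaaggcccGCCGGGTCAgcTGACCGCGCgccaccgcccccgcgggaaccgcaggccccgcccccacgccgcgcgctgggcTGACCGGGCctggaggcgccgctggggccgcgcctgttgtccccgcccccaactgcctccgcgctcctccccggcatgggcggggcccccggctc
A match is only a run of letters in a window, and other windows near these genes were not searched.

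The libraries held 3051755 to 4793757 counted reads (median 3809616), and the members had between 103 and 24851 reads each in a library. Levels are given as normalized CPM (reads of a gene relative to the reads of its library, scaled between libraries by the TMM method). Since a transcript gives reads only at its end, levels were compared between genes without division by length. KEAP1 mRNA was 62.3, 87.9 and 84.4 CPM in the sgCtrl libraries, 63.2, 61.6 and 52.8 with sgKEAP1-1 and 80.9, 84.6 and 73.0 with sgKEAP1-2. The log2 fold change of KEAP1 was -0.40 (SE 0.15, adjusted p = 0.218, edgeR) and 0.03 (SE 0.15, adjusted p = 0.948). The KEAP1 groups overlapped sgCtrl, and reads from the end of the transcript do not check an edit in its coding region. All 10 hepatocyte markers were in the table, and their summed level ran from 29974 to 37258 CPM in sgCtrl, 17185 to 21610 with sgKEAP1-1 and 14135 to 15801 with sgKEAP1-2. This sum moved with the groups, and its part in the results below was not tested. Abundant genes weigh most in such a sum, and single markers are not reported here. It therefore does not show that each of the 10 was lower. Of the markers of other cells, 1 of 3 for blood (CD68, at most 5.75 CPM), 0 of 3 for endothelium and 2 of 4 for fibroblasts (COL1A1 and PDGFRB, together at most 15.7 CPM) were in the table.

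AKR1C1, AKR1C2, AKR1C3 and AKR1B10 rose with both KEAP1 guides, by 2.39-fold to 34.5-fold. AKR1B1 rose 1.48-fold with sgKEAP1-2 alone past the threshold, and AKR1A1 and AKR7A2 did not pass it with either guide. With sgKEAP1-1, 4 of 7 members passed an adjusted p of 0.05 (quasi-likelihood test of edgeR, Benjamini-Hochberg over all features), against 3.94% of all features tested. All 4 were higher, as were 2.66% of all features, and 0 were lower, against 1.28%. With sgKEAP1-2, 5 of 7 passed, against 10.2%. All 5 were higher, as were 5.71% of all features, and 0 were lower, against 4.5%. In both comparisons every KEAP1 library lay above every sgCtrl library for 5 of 7 members, which held for 11.2% of all features with sgKEAP1-1 and 14.1% with sgKEAP1-2. For 0 members did every KEAP1 library lie below every sgCtrl library, against 10.1% and 13.4%.

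**Figure D1:**
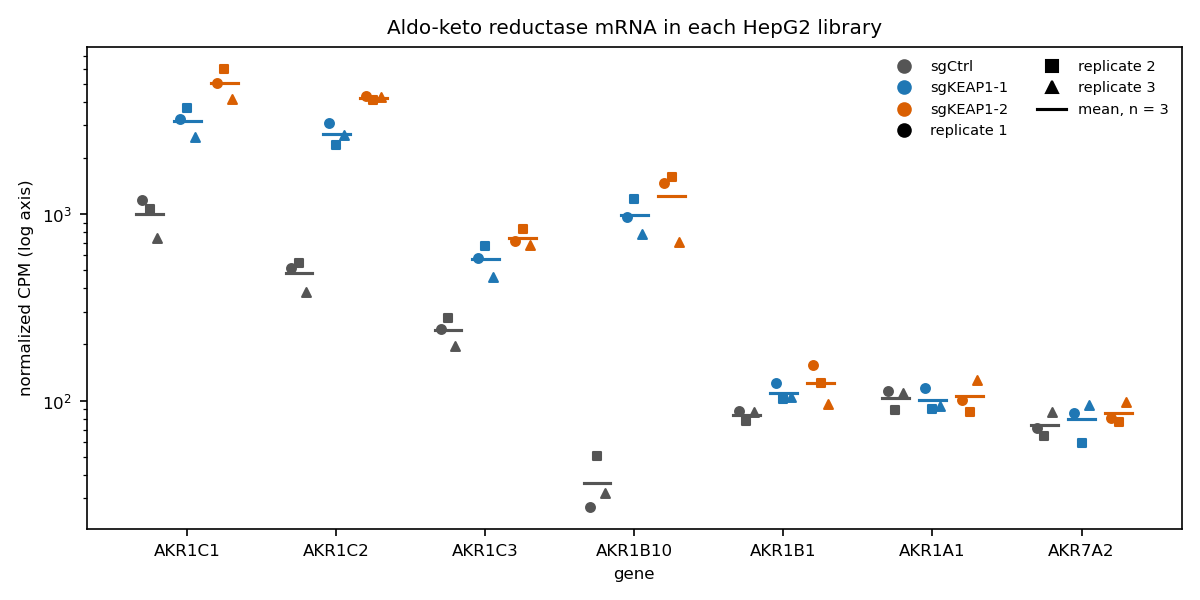
Normalized CPM (log axis) of the 7 genes in each of the 9 libraries, with colour for the group, symbol for the replicate number and a line for the mean of 3. The 6 libraries of the KEAP1 guides lie above the 3 sgCtrl libraries for AKR1C1, AKR1C2, AKR1C3, AKR1B10 and AKR1B1, and the groups overlap for AKR1A1 and AKR7A2.

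AKR1C1 (Entrez 1645) reduces progesterone to a weak metabolite and also acts on lipid aldehydes. Its level was 1194, 1065 and 741 CPM in the sgCtrl libraries, 3225, 3687 and 2580.1 with sgKEAP1-1, and 5032, 5987 and 4109.5 with sgKEAP1-2. The 3 groups did not overlap, and the third library was the lowest in each. The log2 fold change against sgCtrl was 1.66 (SE 0.20, adjusted p = 0.000203, edgeR) with sgKEAP1-1, or 3.16-fold. It was 2.33 (SE 0.20, adjusted p = 6.57e-06, edgeR) with sgKEAP1-2, or 5.04-fold. AKR1C1 had the highest mean of the 7 in every group, although its range overlapped that of AKR1C2 with each KEAP1 guide. Its rank among all tested features went from 113 in sgCtrl to 16 and 9. Since the division of reads among the AKR1C genes is uncertain, their order and ranks are uncertain too.

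AKR1C2 (Entrez 1646) inactivates the androgen dihydrotestosterone and binds bile acids. Its level was 513, 547 and 380.2 CPM in sgCtrl, 3064, 2348 and 2649.7 with sgKEAP1-1, and 4289.6, 4072 and 4214 with sgKEAP1-2. Again the groups did not overlap, and the sgKEAP1-2 libraries lay close together (SD 110.3 around a mean of 4192). Against sgCtrl, the log2 fold change was 2.48 (SE 0.15, adjusted p = 2.85e-07, edgeR) with sgKEAP1-1 and 3.13 (SE 0.16, adjusted p = 3.57e-08, edgeR) with sgKEAP1-2, or 5.60-fold and 8.73-fold. Its rank among tested features went from 276 to 26 and 14.

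AKR1C3 (Entrez 8644) makes testosterone from androstenedione and reduces prostaglandins. Its level was 243, 276 and 197 CPM in sgCtrl, 579.8, 673 and 459.7 with sgKEAP1-1, and 719.6, 834 and 683 with sgKEAP1-2. The groups did not overlap, although the highest sgKEAP1-1 library (673) came close to the lowest sgKEAP1-2 library (683). These levels gave log2 fold changes of 1.26 (SE 0.16, adjusted p = 0.000241, edgeR) and 1.64 (SE 0.16, adjusted p = 1.17e-05, edgeR), or 2.39-fold and 3.13-fold. It was the smallest rise of the AKR1C genes with each guide.

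When the counts of AKR1C1, AKR1C2 and AKR1C3 were summed to 1 feature, so that the division of reads among them no longer mattered, the log2 fold change was 1.90 (SE 0.16, adjusted p = 6.48e-06, edgeR) with sgKEAP1-1 and 2.54 (SE 0.16, adjusted p = 2.92e-07, edgeR) with sgKEAP1-2. The summed level was 1719 ± 348 CPM (SD, n = 3) in sgCtrl, 6422 ± 639 with sgKEAP1-1 and 9980.3 ± 945 with sgKEAP1-2. Any reads that were dropped or counted more than once because they match several genes could still affect this sum.

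AKR1B10 (Entrez 57016) reduces retinaldehyde and lipid aldehydes and is often raised in liver cancer. Its level was 26.9, 50.3 and 32.0 CPM in sgCtrl, 963, 1201 and 784 with sgKEAP1-1, and 1466, 1572 and 708 with sgKEAP1-2. The KEAP1 libraries lay far above sgCtrl, while the groups of the guides overlapped, with the third sgKEAP1-2 library below all 3 of sgKEAP1-1. The log2 fold change was 4.77 (SE 0.38, adjusted p = 0.000117, edgeR) with sgKEAP1-1 and 5.11 (SE 0.39, adjusted p = 3.7e-05, edgeR) with sgKEAP1-2. These correspond to 27.2-fold and 34.5-fold, ranked 23 and 22 from the top of 11788 features by log2 fold change. AKR1B10 was the lowest of the 7 in sgCtrl and the third highest with each KEAP1 guide, although its range overlapped that of AKR1C3 with sgKEAP1-2.

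AKR1B1 (Entrez 231) is aldose reductase, which turns glucose into sorbitol in the polyol pathway. Its level was 87.6, 78.2 and 86.8 CPM in sgCtrl, 125, 102 and 104 with sgKEAP1-1, and 155, 124 and 95.8 with sgKEAP1-2. Every KEAP1 library was above every sgCtrl library, the lowest at 95.8 against 87.6. The log2 fold change was 0.39 (SE 0.17, adjusted p = 0.288, edgeR) with sgKEAP1-1 and 0.57 (SE 0.17, adjusted p = 0.0435, edgeR) with sgKEAP1-2, the latter 1.48-fold. The sgKEAP1-2 value missed the threshold with limma-voom (adjusted p = 0.0703), with no scaling (0.0541) and in a fit of the 2 groups alone (0.0633). It also missed it without sgCtrl library 1, 2 or 3 (adjusted p = 0.107, 0.135 and 0.11), sgKEAP1-1 library 1 or 3 (0.0547 and 0.0585), or sgKEAP1-2 library 1 or 2 (0.199 and 0.0906), and the log2 fold change was 0.39 to 0.72 with 1 library left out (edgeR).

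AKR1A1 (Entrez 10327) is aldehyde reductase, which acts on glucuronate and many other aldehydes. Its level was 112, 88.6 and 109 CPM in sgCtrl, 117, 90.6 and 93.6 with sgKEAP1-1, and 101, 86.7 and 129.6 with sgKEAP1-2, and all 3 groups overlapped. Against sgCtrl, AKR1A1 had a log2 fold change of -0.05 (95% interval -0.40 to 0.31, adjusted p = 0.957, edgeR) and 0.03 (-0.33 to 0.39, adjusted p = 0.948). AKR7A2 (Entrez 8574) reduces succinic semialdehyde and the dialdehyde of aflatoxin. Its level was 71.7, 64.7 and 86.8 CPM in sgCtrl, 85.6, 59.3 and 94.6 with sgKEAP1-1, and 81.2, 76.8 and 98.4 with sgKEAP1-2, also with overlap of all groups. Against sgCtrl, AKR7A2 had a log2 fold change of 0.10 (95% interval -0.29 to 0.48, adjusted p = 0.896, edgeR) and 0.20 (-0.19 to 0.59, adjusted p = 0.583). The upper ends of these intervals lie below the log2 fold changes of AKR1C3.

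**Figure D2:**
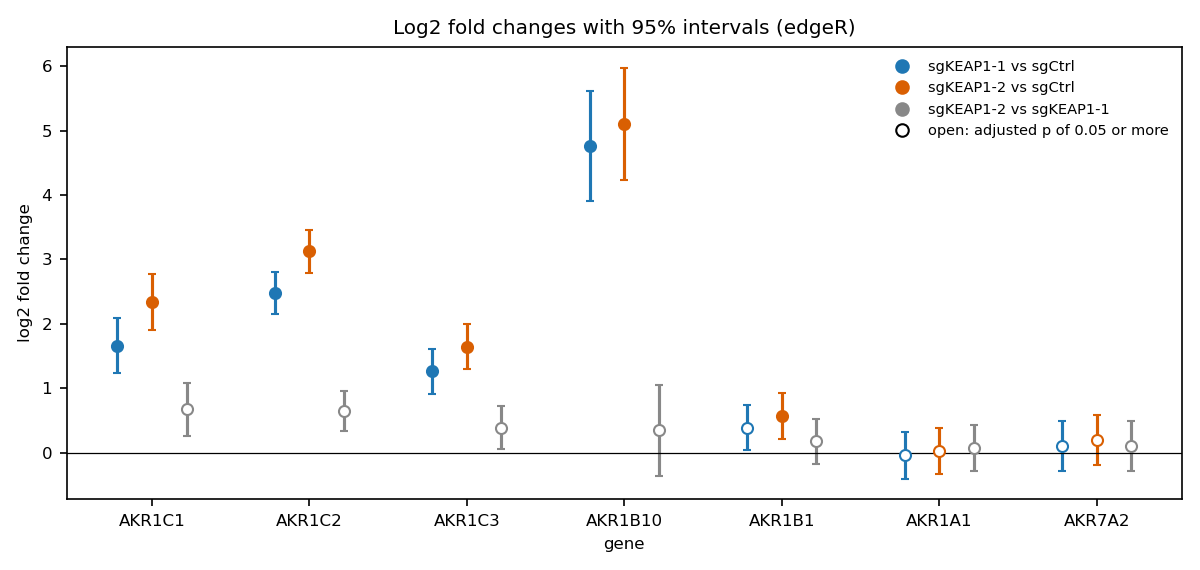
Log2 fold changes of the 7 genes from edgeR with 95% intervals, for each KEAP1 guide against sgCtrl and for sgKEAP1-2 against sgKEAP1-1. Filled points passed an adjusted p of 0.05. Against sgCtrl the values of AKR1B10 (4.77 and 5.11) are the highest and those of AKR1A1 (-0.05 and 0.03) lie at 0, and no point of the guide comparison is filled.

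The guides were also compared with each other. With sgKEAP1-2, AKR1C1, AKR1C2 and AKR1C3 lay above sgKEAP1-1 in every library, which held for 5.46% of all features, and 0 members lay below it in every library, against 4.84%. The log2 difference was 0.67 for AKR1C1 (SE 0.19, adjusted p = 0.815, edgeR), 0.64 for AKR1C2 (SE 0.14, adjusted p = 0.33) and 0.38 for AKR1C3 (SE 0.16, adjusted p = 0.929). In this fit, 0 of the 7 passed the adjusted threshold, and 2 of all features did (0.017%). At an unadjusted p under 0.05 there were these 3 members, against 5.03% of all features. The DESeq2 Wald test passed 1 member, AKR1C2 (adjusted p = 0.0318), and limma-voom passed 0. With the replicate number as a block, AKR1C1 (adjusted p = 0.00477, edgeR) and AKR1C2 (adjusted p = 0.02) passed. Whether these numbers pair the libraries is not stated, so the call between the guides depends on how they are treated. For AKR1B10 the log2 difference was 0.34 (95% interval -0.37 to 1.06, adjusted p = 0.984, edgeR). For AKR1B1, AKR1A1 and AKR7A2 it was 0.18 (-0.17 to 0.53), 0.07 (-0.28 to 0.43) and 0.10 (-0.28 to 0.49), with adjusted p of 0.984 or more. These intervals do not show that the guides gave equal levels.

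The share of the family in all counted reads was 0.201% ± 0.0328 (SD, n = 3) in sgCtrl, 0.770% ± 0.0698 with sgKEAP1-1 and 1.15% ± 0.151 with sgKEAP1-2. Summed over the 7 genes, the level ran from 1634 to 2249 CPM in sgCtrl, 6766 to 8161 with sgKEAP1-1 and 10038 to 12753 with sgKEAP1-2. Within this sum, AKR1B10 made up 1.82% ± 0.574 in sgCtrl, 12.7% ± 1.75 with sgKEAP1-1 and 10.6% ± 3.06 with sgKEAP1-2. AKR1A1 went the other way as a part of the sum, from 5.26% ± 1.33 to 1.31% ± 0.174 and 0.940% ± 0.315, at nearly level CPM.

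**Figure D3:**
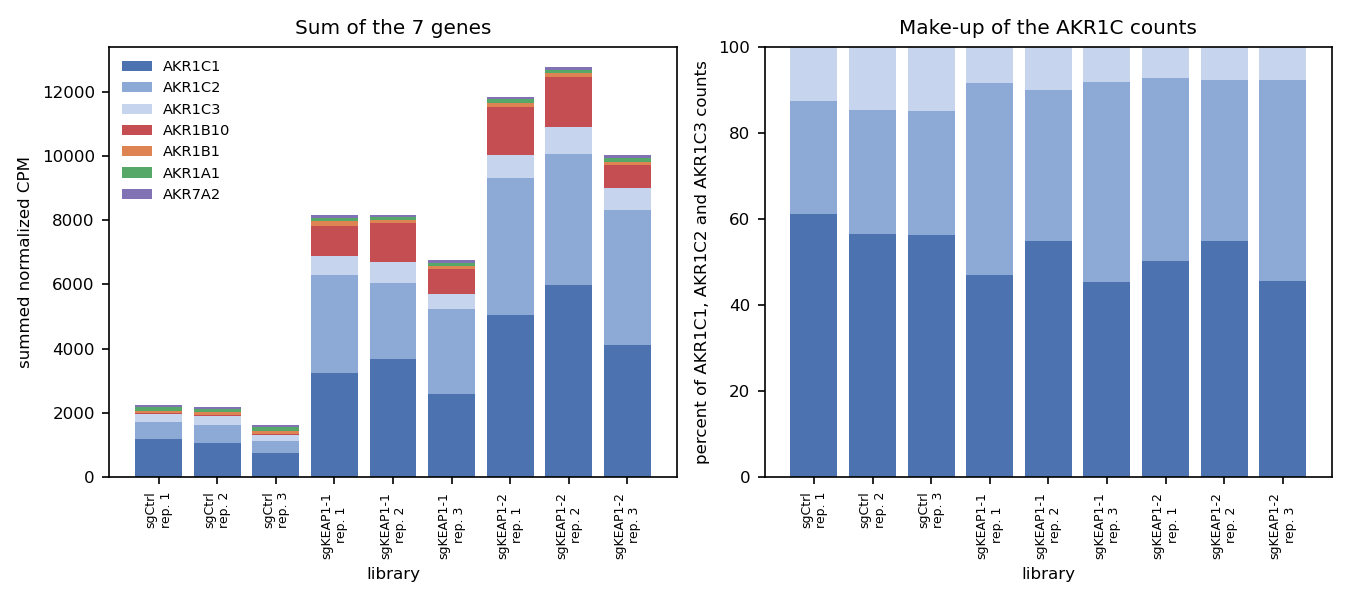
Left, normalized CPM of the 7 genes stacked for each library. Right, the percent of AKR1C1, AKR1C2 and AKR1C3 counts that each of these genes takes in a library. The stacks reach at most 2249 CPM in sgCtrl and at least 6766 in the KEAP1 libraries, and AKR1C2 takes 26.3% to 29.0% of the AKR1C counts in sgCtrl and 35.0% to 46.8% in the KEAP1 libraries.

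The counts assigned to AKR1C1, AKR1C2 and AKR1C3 did not rise in proportion in these libraries. Of the counts of AKR1C1, AKR1C2 and AKR1C3 together, AKR1C2 took 28.04% ± 1.498 in sgCtrl (SD, n = 3) and 42.2% ± 4.92 in the 6 KEAP1 libraries, a difference of 14.1 points (two-sided exact permutation test, p = 0.0238). AKR1C1 took 58.0% ± 2.84 and 49.7% ± 4.44, a difference of -8.30 points (exact permutation p = 0.0238). AKR1C3 took 14.002% ± 1.35 and 8.16% ± 1.02, a difference of -5.84 points (exact permutation p = 0.0238). This p is the smallest that the 84 arrangements allow, and it was 0.0238 also after Benjamini-Hochberg adjustment over the 3 shares. The test pooled the libraries of the guides into 1 group, so it does not stand for either guide. The shares of a library add up to a fixed total, so the 3 p-values are not separate results. With 1 guide at a time, 3 libraries against 3 gave p = 0.1 for each share (exact permutation), the smallest that design can reach. Without sgCtrl library 1, 2 or 3 the difference in the AKR1C1 share was -6.66, -9.06 and -9.17 points (exact permutation p = 0.0714 each, the smallest possible there). In both KEAP1 groups the second library had the lowest AKR1C2 share, 35.0% and 37.4%. Because AKR1C2 shares end sequence with AKR1C1, a change in these shares may include a change in how reads were assigned, which was not tested.

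Of 10 further aldo-keto reductases listed for comparison, 3 were in the table and 2 had enough reads to test, and the other 7 were not analysed here. KCNAB2, a subunit of voltage-gated potassium channels with an aldo-keto reductase fold, was 10.2 ± 1.84 CPM in sgCtrl (SD, n = 3), 19.4 ± 1.38 with sgKEAP1-1 and 22.1 ± 6.30 with sgKEAP1-2. It rose by a log2 fold change of 0.93 (SE 0.24, adjusted p = 0.0477, edgeR) and 1.12 (SE 0.24, adjusted p = 0.00787). The first of these missed the threshold with limma-voom (adjusted p = 0.0692), with a minimum of 10 counts in every library (0.0555), without sgCtrl library 1, 2 or 3 (0.0728, 0.127 and 0.201) and without sgKEAP1-1 library 1, 2 or 3 (0.166, 0.099 and 0.0854). AKR1D1, the reductase of bile acid synthesis, was 22.04 ± 5.73, 16.5 ± 2.79 and 12.6 ± 4.77 CPM, with log2 fold changes of -0.43 (adjusted p = 0.551, edgeR) and -0.82 (adjusted p = 0.0947). Without sgKEAP1-2 library 3 the latter was -1.13 (adjusted p = 0.0211, edgeR). AKR1C4, the liver member of the AKR1C genes, had 0 to 11 reads in a library and was not tested in the main fit.

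Most NRF2 target genes outside the family also rose. Of 23 tested, 17 were higher and 0 lower with sgKEAP1-1 (median log2 fold change 1.04), and 20 were higher and 0 lower with sgKEAP1-2 (median 1.34). Of all features, 2.66% were higher and 1.28% lower with sgKEAP1-1 (median 2e-04), and 5.71% and 4.5% with sgKEAP1-2 (median -0.01). NQO1, a quinone reductase, rose by 1.38 and 1.74 on the log2 scale with the 2 guides, GCLM, a subunit of the enzyme that starts glutathione synthesis, by 1.77 and 2.18, and TXNRD1, thioredoxin reductase, by 2.13 and 2.34 (largest adjusted p = 0.00206, edgeR). OSGIN1, an oxidative stress gene, rose by 1.96 and 2.38, and EPHX1, an epoxide hydrolase, by 1.84 and 2.19. The log2 fold changes of AKR1C2 and AKR1B10 were above those of each of these genes with both guides, and that of AKR1C3 was below that of NQO1. Differences between genes were not tested. NFE2L2 itself was at 253 ± 19.4, 192 ± 18.1 and 180.2 ± 28.2 CPM (SD, n = 3), with log2 fold changes of -0.40 (adjusted p = 0.15, edgeR) and -0.49 (adjusted p = 0.0369). Without sgKEAP1-2 library 3 the former passed the threshold (-0.40, adjusted p = 0.0446, edgeR). The latter missed the threshold in a fit of the 2 groups alone (0.0579) and without sgCtrl library 1 or 3 (0.145 and 0.125), sgKEAP1-1 library 1 or 3 (0.0563 and 0.0536), or sgKEAP1-2 library 1 or 3 (0.0618 and 0.0784).

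Some other enzymes that handle carbonyl compounds also passed the test. Of 18 tested, 5 were higher and 1 lower with sgKEAP1-1 (median log2 fold change -0.05), and 4 were higher and 1 lower with sgKEAP1-2 (median -0.08), where 3.94% and 10.2% of all features passed. The count with sgKEAP1-1 fell from 6 to 3 genes passing without sgCtrl library 3 and with a minimum of 10 counts in every library. PTGR1, which reduces alkenals and prostaglandins, was 19.5 ± 2.01 CPM in sgCtrl, 660.1 ± 113 with sgKEAP1-1 and 961 ± 169 with sgKEAP1-2. Its log2 fold changes of 5.08 and 5.62 (adjusted p = 1.83e-09 and 5.78e-10, edgeR) were above the 4.77 and 5.11 of AKR1B10, within its 95% intervals (3.91 to 5.62 and 4.24 to 5.98). ALDH3A1, an aldehyde dehydrogenase, had only 6, 2 and 8 reads in the sgCtrl libraries, against 62 to 71 with sgKEAP1-1 and 49 to 108 with sgKEAP1-2. It passed the test with both guides (adjusted p = 0.000355 and 4.96e-05, edgeR), but entered it through its reads in the KEAP1 libraries and was not in the fit with a minimum of 10 counts in every library. ALDH1A1, which makes retinoic acid, rose by 1.40 and 1.71 on the log2 scale.

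The substrates of the AKR1C genes and AKR1B10 include steroids, prostaglandins and retinoids, and other genes of these pathways were counted in the same fit. Of 15 tested genes for steroids and prostaglandins, 1 was higher and 1 lower with each guide (medians -0.08 and -0.04), against 3.94% of all features passing with sgKEAP1-1 and 10.2% with sgKEAP1-2. UGT2B7, which glucuronidates steroids, rose by 0.79 (adjusted p = 0.00912, edgeR) and 0.92 (adjusted p = 0.00161), and HSD11B2, which inactivates cortisol, had log2 fold changes of -1.09 (adjusted p = 0.00976) and -1.43 (adjusted p = 0.000856). With sgKEAP1-1, UGT2B7 missed the threshold without sgCtrl library 3 (adjusted p = 0.0553) and HSD11B2 without sgCtrl library 1 (0.0792), which left 1 gene passing in each case. Of 6 retinoid genes tested and reported, 0 were higher and 1 lower with sgKEAP1-1, and 1 was higher and 1 lower with sgKEAP1-2 (medians 0.13 and 0.08), against the same shares of all features. The counts of these lists were not tested against those shares. RBP4, which carries retinol in blood, had log2 fold changes of -0.53 (adjusted p = 0.0217, edgeR) and -0.70 (adjusted p = 0.00166). The first of these missed the threshold without sgCtrl library 1 or 3 (0.108 and 0.0856) or sgKEAP1-1 library 1 or 3 (0.122 and 0.0607), each leaving 0 genes passing. STRA6, a retinol transporter, had 1, 3 and 5 reads in sgCtrl, 4 to 14 with sgKEAP1-1 and 15 to 19 with sgKEAP1-2, and was likewise not in the fit with a minimum of 10 counts. Its adjusted p was 0.286 and 0.0213 (edgeR), and the latter missed the threshold without sgCtrl library 1 or 2 (0.104 and 0.0518) or sgKEAP1-2 library 1 or 2 (0.0605 and 0.0594), each leaving 1 gene passing.

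The features with the most similar pattern were found for AKR1C1, AKR1B10, AKR1B1 and AKR7A2 by the root mean square distance of log2 CPM over the 9 libraries, after subtraction of the sgCtrl mean. Nearest to AKR1C1 was GCKR, the regulator of glucokinase, at a distance of 0.12, followed by COLGALT2 (0.19), EPHX1 (0.20), OSGIN1 (0.22) and ITPR3 (0.22). These were nearer to AKR1C1 than AKR1C3 (0.48) or AKR1C2 (0.70) was. Near AKR1B10 were TUSC3 (0.35), TINAG (0.40), PTGR1 (0.44) and NOTCH3 (0.47), and no other member lay within 1.76 of it. For AKR1B1 the nearest were KIAA0232, BLCAP, TTC14, SKAP2 and LASP1, at 0.12 to 0.14, and for AKR7A2 they were CARM1, MED27, MLEC, WNK2 and RPUSD1, at 0.08 to 0.09. A gene that varies little lies near many others, so the distances of AKR1B1 and AKR7A2 are not comparable with that of AKR1B10.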

How the data were processed

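Poly(A) RNA of 9 HepG2 libraries was prepared with the QuantSeq kit and sequenced as single-end reads. The authors trimmed, aligned and counted the reads with Galaxy tools. The values the authors deposited are raw read counts, 1 whole number per gene and library. The submitters' processing notes name FastQC 0.72, Cutadapt 1.16, STAR 2.7.5b, featureCounts 1.6.3 and limma 3.40.6. The study's methods name GRCh37 (hg19) and the processing notes name hg38, so the build is unsettled. The annotation, the strand setting and the treatment of reads that match several genes are not given in the sources used here. Features without an Entrez identifier (1052, with 1.34% of reads) were kept in the library sizes and tests. Each of the 12798 deposited features exceeded 0.5 CPM in at least 3 libraries. The groups come from the sample titles.

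Features were kept with filterByExpr of edgeR 4.0.16 (R 4.3.3), scaled by TMM and tested with the quasi-likelihood test in 1 model of the 9 libraries that held no factor besides the group. The threshold was an adjusted p (Benjamini-Hochberg over all features tested) of 0.05. Log2 CPM used a prior count of 2. Depth was 3051755 to 4793757 counted reads, and groups of 3 limit the precision. Same-group libraries differed by more than sampling noise (chi-square per degree of freedom 4.60 to 24.1), so none was counted as a duplicate. Shares of AKR1C counts were compared by exact permutation over libraries. The tests were checked on simulated data, but no outcome of that check is reported here, so nothing is drawn from it. Alternatives tried were a block for the replicate number, size factors of DESeq2, no scaling, the DESeq2 Wald test (1.42.0), limma-voom (limma 3.58.1), 2 other filters, 2-group fits, the summed AKR1C genes and leaving out each library. RefSeq positions and promoters are of GRCh38.p14, and GENCODE transcripts were used for shared windows.

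The members and lists were chosen with earlier results of these data known. The genes named are all members, KEAP1, NFE2L2, the tested genes among the other aldo-keto reductases, the 3 largest changes past the threshold with sgKEAP1-2 in each other list (with NQO1, GCLM and TXNRD1 in any case), and the 5 nearest patterns of 4 members. AKR1C4 is named outside this rule, and 2 genes that the rule names are not reported here.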

Additional observations from a re-analysis of the deposited data

How the results depend on the processing

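The rises of AKR1C1, AKR1C2, AKR1C3 and AKR1B10 against sgCtrl passed the threshold with both guides in every alternative fit and with each library left out. Without 1 library, 4 members passed with sgKEAP1-1, 4 to 5 with sgKEAP1-2 and 0 between the guides. The number of features passing ranged from 282 to 703 with sgKEAP1-1 (282, 295, 294 and 703 without sgCtrl library 1, sgCtrl library 3, sgKEAP1-1 library 1 and sgKEAP1-2 library 3), from 764 to 1295 with sgKEAP1-2 (764 and 770 without sgCtrl library 1 and 3) and from 0 to 2 between the guides. Between the guides, the DESeq2 Wald test passed 20 features and 1 member, and limma-voom and the 2-group fit passed 0 features. Deviations of same-numbered libraries from their group means correlated at 0.219 on average (-0.03 to 0.50 over 9 pairs, 7 of them over 0.1). Those of different-numbered libraries correlated at -0.11 (18 pairs). Deviations within a group sum to 0, so the second average is largely set by the first. Each pair under 0.1 held sgKEAP1-2 library 1, with sgCtrl library 1 (-0.0266) and with sgKEAP1-1 library 1 (0.0197). Same-numbered libraries of the 3 groups also share a prefix in their labels. What the prefix marks is not stated and 2 pairs lay under 0.1, so the numbers were not taken as pairs, although they may tie libraries across groups. With the replicate number as a block, 988, 1976 and 25 features passed in the 3 comparisons, and 2 members passed between the guides, AKR1C1 (log2 difference 0.67, adjusted p = 0.00477, edgeR) and AKR1C2 (0.65, adjusted p = 0.02). The block also passed AKR1D1 with sgKEAP1-2 (-0.83, adjusted p = 0.00982) and NFE2L2 with sgKEAP1-1 (-0.40, adjusted p = 0.046), and with sgKEAP1-2 it passed 2 in place of 1 of the other aldo-keto reductases, 8 in place of 5 carbonyl enzymes and 4 in place of 2 genes for steroids and prostaglandins. With the block, the difference in the AKR1C1 share was -8.30 points (exact sign-flip permutation, p = 0.25, the smallest possible), and it was -9.36 to -6.66 without 1 library. Values near 0 changed sign when 1 library was left out: AKR1A1 ran from -0.17 to 0.0228, from -0.15 to 0.15 and from -0.10 to 0.20 in the 3 comparisons, AKR7A2 from -0.0416 to 0.27 with sgKEAP1-1 and from -0.0757 to 0.24 between the guides, and AKR1B1 from -0.0048 to 0.34 between the guides. KEAP1 ran from -0.11 to 0.12 with sgKEAP1-2, and between the guides KCNAB2 ran from -0.0645 to 0.34 and NFE2L2 from -0.17 to 0.0359. The cause was not tested. AKR1C4, with 0 to 11 reads in a library, did not pass the read filter of the main fit, and no test of it is reported.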
